A study of Mus musculus with 8 samples.

Results

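The genes described here are 36 genes of protein folding in the endoplasmic reticulum (ER) and of the unfolded protein response, measured in spleen cells of leukemic mice. They were chosen by name from the platform annotation, and each was read from its probe set with the highest mean over the 8 arrays. All 36 were on the array, out of 18193 named genes, and all 36 were among the 11386 genes kept after a filter on dim genes, which asked for at least 2 of the 4 animals above the median of all probe sets. Chac1 passed it only through the truncated animals, and Nucb2 through these and 1 full-length animal. The mice of both genotypes were leukemic and expressed a form of CBFb-SMMHC, a leukemia fusion of a smooth muscle myosin tail with CBFb, a subunit of core-binding factor. The full-length group carried CBFb-SMMHC and was sampled 2 months after ENU, a chemical mutagen. The truncated group carried CBFb-SMMHCd179-221, whose name marks a deleted stretch of the fusion, and was sampled 3 weeks after birth, with no ENU named in its labels. ENU treatment, age and genotype therefore cannot be told apart, and no group without the fusion was analysed here. The sample labels call all mice chimeras, in which cells without the fusion can remain, while the series text calls the full-length mice knock-in; the share of cells with the fusion is not stated. There were 4 arrays and 2 animals a genotype: animal 1 was hybridised once, and animal 2 on arrays 1, 2 and 3.

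The ER folds proteins that enter the secretory path or the cell membrane. Hsp70 and Hsp90 type chaperones hold unfolded chains there, calreticulin and calnexin bind their sugars, and disulfide isomerases form and rearrange their bonds. When unfolded chains accumulate, the sensors IRE1 (Ern1), ATF6 (Atf6) and PERK (Eif2ak3) start the unfolded protein response. IRE1 splices the messenger of Xbp1, ATF6 is cut to release a transcription factor, and PERK slows translation while favouring that of Atf4. XBP1 and ATF6 raise chaperones and the machinery of ER-associated degradation, whereas ATF4 raises amino acid genes such as Asns and, through CHOP (Ddit3), genes such as Trib3. Other kinases that sense amino acid shortage also act on ATF4. Granulocyte precursors and antibody-secreting cells, both of which occur in spleen, load much protein into the ER.

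Letters of the elements that these factors are known to bind were searched in the RefSeq promoter table of build GRCm38.p6, which holds 300 bases for each start (250 before and 50 after) and matched 31 of the 36 symbols. The ER stress element was searched on both strands as CCAAT, any 9 bases and CCACG. It was in the promoters of 8 of these 31 genes (25.8%), against 0.137% of the 27025 genes in the table. The 8 were Calr, Canx, Creld2, Dnajc3, Hsp90b1, Hspa5, Pdia6 and Syvn1. The shorter element II, ATTGG, any 1 base and CCACG, shares the parts CCAAT and CCACG with the former. It was found for Dnajb11 and Herpud1, against 0.0444% of all genes in the table. The CEBP and ATF response element, searched as TGATGNAAN, was found for Asns, Chac1, Herpud1 and Trib3, against 4.5% of all genes in the table. A match of TGACGTGG, a core bound by XBP1, was found for 0 of the 31 in this window, against 0.714% of all genes in the table. The stretches below lie before the start, and capitals mark the matches. The first 4 genes carry the ER stress element with a higher value in the truncated group, Canx carries it with a lower value, Herpud1 carries elements of both kinds, and Asns and Chac1 carry the response element of ATF4 with values in opposite directions.
Hspa5 (chr2:34772017-34772051, + strand): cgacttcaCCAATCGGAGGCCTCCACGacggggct
Hsp90b1 (chr10:86705525-86705664, - strand): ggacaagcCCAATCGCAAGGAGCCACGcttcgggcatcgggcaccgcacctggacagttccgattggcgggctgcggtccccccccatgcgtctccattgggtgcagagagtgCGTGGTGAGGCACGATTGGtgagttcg
Creld2 (chr15:88819512-88819546, + strand): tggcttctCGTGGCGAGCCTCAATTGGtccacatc
Pdia6 (chr12:17266483-17266517, + strand): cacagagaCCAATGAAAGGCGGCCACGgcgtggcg
Canx (chr11:50325792-50325826, - strand): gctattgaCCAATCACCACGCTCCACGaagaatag
Herpud1 (chr8:94386308-94386395, + strand): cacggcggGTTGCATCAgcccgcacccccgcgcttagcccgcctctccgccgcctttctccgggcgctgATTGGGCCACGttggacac
Asns (chr6:7693216-7693240, - strand): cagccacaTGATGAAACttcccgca
Chac1 (chr2:119351040-119351064, + strand): tccctgccGTTGCATCActcctgcc
Among the 8 genes with the ER stress element the median difference between genotypes was 0.54 on the log2 scale, and 7 had a higher value in the truncated group. The 23 members with a promoter in the table and no match of this element had a median of 0.31, with 19 higher. On the first array of each animal these medians were 0.50 and 0.47, and on arrays 2 and 3 of animal 2 they were 0.45 and 0.20. The 10 genes with a match of either element, which adds Dnajb11 and Herpud1, had a median of 0.32, with 9 higher. These matches describe letters in the window and were not tested as sites of binding.

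Values below are log2 expression as deposited, and a difference is truncated minus full-length. Array values are listed in the order animal 1, then arrays 1, 2 and 3 of animal 2. The arrays of an animal were averaged first, and each mean ± SD is taken across the 2 animals. The array medians lay between 4.71 and 4.78, and the number of arrays and animals limits the precision. Array 1 of animal 2 resembled the array of animal 1 more than the other arrays of its own animal. In the full-length group these correlations over all probe sets were 0.989 against 0.954 and 0.953, and in the truncated group 0.987 against 0.976 and 0.976, while arrays 2 and 3 had 0.997 in both. The arrays numbered 1 and the arrays numbered 2 and 3 are therefore also compared apart. The first set holds 1 array of each of the 4 animals, and the second holds only animal 2 of each genotype. The full-length arrays numbered 1 stood apart. Their medians of the 12 erythroid marker genes on the array were 11.03 and 10.96, against 8.05 and 8.06 on the other full-length arrays. Mpo, the myeloperoxidase of immature granulocytes, lay at 5.57, 4.86, 11.17 and 11.25 on the full-length arrays. Fewer cells of a type and less RNA per cell cannot be told apart in such bulk samples.

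Of the 15 chaperones and disulfide isomerases of the ER, 14 had a higher mean in the truncated group, with a median difference of 0.68. Asparagine synthetase (Asns) and CHOP (Ddit3) were lower on every truncated array, and Nucb2 was higher on every one. Of the 36 genes, 29 had a higher and 7 a lower mean in truncated animals, where 48.4% of all genes tested had a higher mean. The median difference was 0.29, against -0.014 over all genes tested. By limma on the animal means, 0 of the 36 passed an adjusted p of 0.05 in either direction, as did 0% of all genes. At an unadjusted p under 0.05 there were 9 higher members (25.0%, against 8.79% of all genes) and 2 lower (5.56%, against 5.30%). Truncated and full-length arrays were fully separate for 11 members with higher values (30.6%, against 10.3% of all genes) and 2 with lower values (5.56%, against 8.77%).

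Same-numbered arrays deviated together across genotypes, as did other arrays of the same set, and the comparison was also fitted on the 8 arrays with this number as a replicate block. In that fit 7 members were higher (19.4%, against 5.13% of all genes) and 2 were lower (5.56%, against 3.13%) at an adjusted p under 0.05 by limma. The higher ones were Hsp90b1, Pdia4, P4hb, Edem1, Creld2, Manf and Nucb2, and the lower ones were Asns and Ddit3. This fit counts arrays of an animal as separate, so its p-values are too small as a statement on animals. In a fit of the 8 arrays that treated the animal as random, only Nucb2 (2.78% of members, against 2.32% of genes in that direction) and Asns (2.78%, against 0.711%) passed. With the animal number as a replicate block on the animal means, Nucb2 passed (1 of 36, 2.78%, against 2.16%) and 0 were lower (against 0.351%; Asns had an adjusted p of 0.0683 in limma). The arrays numbered 1 alone, 1 per animal, gave 14 higher (38.9%, against 14.6%) and 4 lower (11.1%, against 12.2%). The lower ones were Asns, Ddit3, Trib3 and Ppp1r15a, and these arrays include the full-length arrays that stood apart. Among the 14, Nucb2 and Chac1 had both full-length values below the median of all probe sets. They were kept there only through the truncated animals, so their passing carries no weight. On the animal means, omitting array 2 or array 3 of full-length animal 2 let Asns pass by limma (adjusted p = 0.0480 and 0.0400). Nucb2 passed as well, but without array 3 both full-length animals lay below the median of all probe sets. Without array 2, full-length animal 2 lay close to that median. Nucb2 thus rested on the truncated animals in these fits, and no adjusted p is given for it. The block fit is named with its adjusted p at each gene it called.

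**Figure D1:**
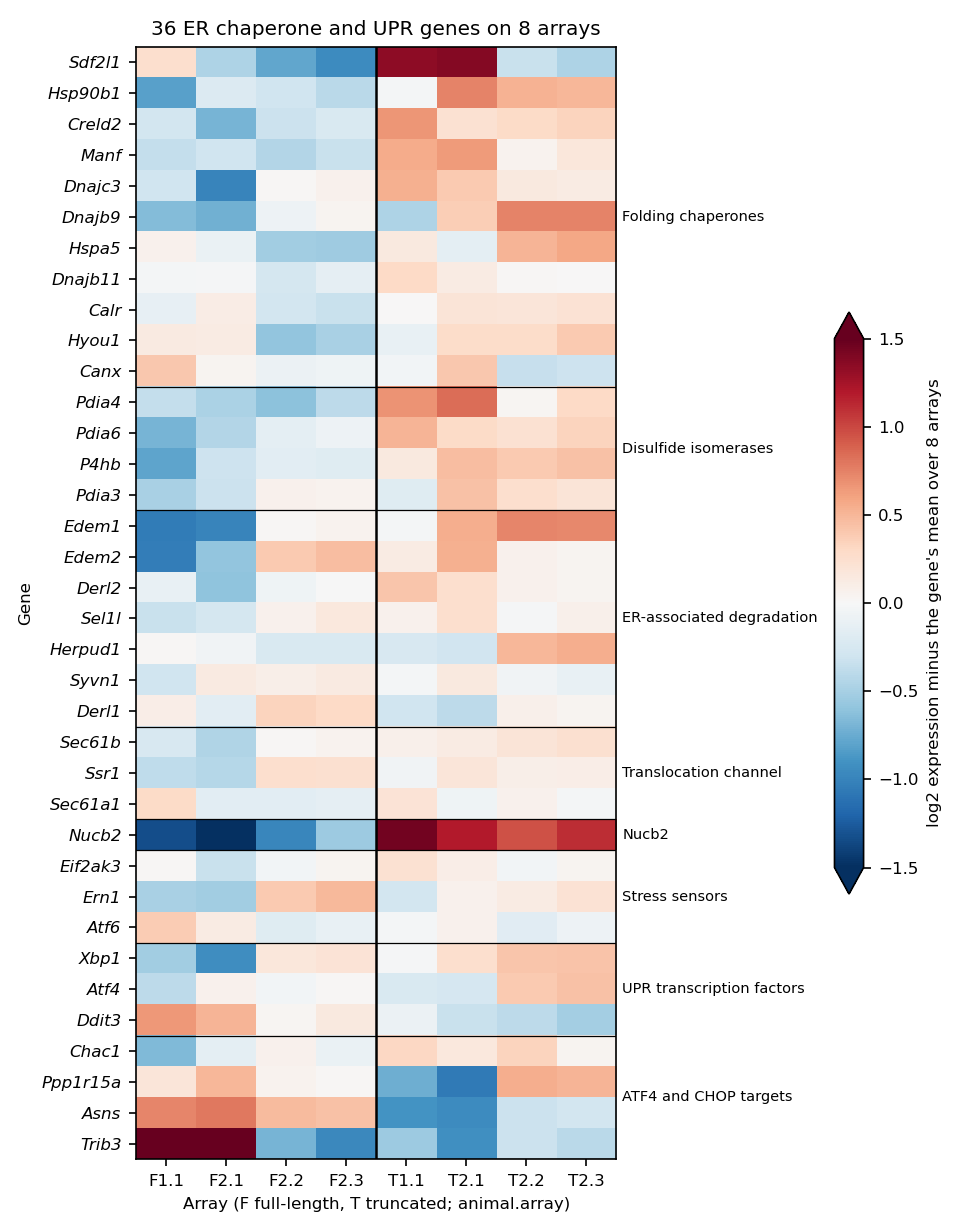
Log2 expression of the 36 genes (rows, grouped by role) on the 8 arrays (columns; F full-length, T truncated, with animal and array number), as the difference from each gene's mean over the 8 arrays; the colour scale saturates at 1.5. Nucb2 and Asns separate the genotypes on every array, while Trib3 is high only on the full-length arrays numbered 1.

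Of the 11 folding chaperones and their helpers, 10 had a higher mean in the truncated group and 1, Canx, a lower one. Their median difference was 0.53, with 0.63 among the arrays numbered 1 and 0.51 among arrays 2 and 3. Hsp90b1, the ER form of Hsp90 (GRP94), which folds integrins and Toll-like receptors, lay at 9.38, 9.99, 9.90 and 9.79 on the full-length arrays and 10.17, 10.94, 10.72 and 10.69 on the truncated arrays. Every truncated array lay above every full-length array, and the array of animal 1 was the lowest in each genotype. The means were 9.64 ± 0.36 and 10.48 ± 0.43 (SD, n = 2 animals each), a difference of 0.84 (95% interval 0.021 to 1.66; limma, adjusted p = 0.341; adjusted p = 0.0136 with the replicate block). The difference was 0.87 among the arrays numbered 1 and 0.86 among arrays 2 and 3, and its other probe set gave 0.81.

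Manf, a small secreted protein of stressed cells that is held in the ER, lay at 9.44, 9.49, 9.36 and 9.46 on the full-length arrays and 10.35, 10.43, 9.85 and 9.96 on the truncated arrays. The full-length arrays lay within a narrow band, and the truncated arrays all lay above it. Its difference of 0.78 had an adjusted p of 0.228 in limma, and of 0.0390 with the replicate block. Creld2, an ER-resident target of ATF6, lay at 7.60, 7.18, 7.56 and 7.65 on the full-length arrays and 8.54, 8.10, 8.16 and 8.21 on the truncated arrays, again without overlap. Its means were 7.53 ± 0.10 and 8.35 ± 0.27 (limma, adjusted p = 0.240; 0.0273 as adjusted p with the replicate block). Dnajc3 (p58IPK), a co-chaperone of BiP, lay at 7.54, 6.84, 7.85 and 7.90 on the full-length arrays and 8.37, 8.22, 7.98 and 7.96 on the truncated arrays. The groups did not overlap, but the full-length arrays 2 and 3 lay close to the truncated ones, so that the difference was 1.10 among the arrays numbered 1 and 0.10 among the others.

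Hspa5 (BiP), the main Hsp70 of the ER and the usual readout of ER stress, lay at 11.29, 11.12, 10.71 and 10.69 on the full-length arrays and 11.37, 11.08, 11.73 and 11.80 on the truncated arrays. Truncated arrays 2 and 3 were the highest, while the truncated arrays numbered 1 lay near the full-length arrays of that number. The difference was 0.023 among the arrays numbered 1 and 1.07 among arrays 2 and 3, and 0.39 on the animal means (95% interval -0.26 to 1.05; limma, adjusted p = 0.605). Further probe sets of Hspa5 differed by 0.69 without overlap of the arrays and by 0.39 with overlap. Hyou1, the large Hsp70 type chaperone that exchanges nucleotide on BiP, differed in a like way, by -0.041 among the arrays numbered 1 and 0.87 among arrays 2 and 3. Other Hyou1 probe sets, both dimmer, differed by -0.31 and -0.48, so its direction depended on the probe set. Dnajb9 (ERdj4), a co-chaperone that keeps BiP on IRE1, differed by 0.63 and 0.76 in the respective sets, and its value on the truncated array of animal 1, 7.39, lay below the full-length arrays 2 and 3.

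Of the remaining chaperones, Calr (calreticulin) differed by 0.25, and its lectin partner Canx (calnexin), bound to the membrane, by -0.24. In these brightest probe sets the arrays of the genotypes overlapped for both genes. The other Calr probe sets differed by 0.46 and 0.25 without overlap, whereas those of Canx overlapped too. Dnajb11 (ERdj3) differed by 0.26 with no overlap of the arrays. Sdf2l1, which works with ERdj3, lay at 6.54, 5.83, 5.51 and 5.34 on the full-length arrays and 7.63, 7.67, 5.96 and 5.83 on the truncated arrays. It was high on both truncated arrays numbered 1, and on the other truncated arrays it lay within the full-length range.

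All 4 disulfide isomerases had a higher mean in the truncated group, with a median difference of 0.83. Pdia4 (ERp72) lay at 5.99, 5.87, 5.74 and 5.96 on the full-length arrays and 7.03, 7.19, 6.39 and 6.65 on the truncated arrays, and no truncated array reached down to the full-length ones. The means of 5.92 ± 0.095 and 6.88 ± 0.20 were 1.95-fold apart (95% interval of the log2 difference 0.37 to 1.55; limma, adjusted p = 0.171; 0.0308 as adjusted p with the replicate block). P4hb (PDI), also a subunit of the collagen prolyl hydroxylase, lay at 10.12, 10.60, 10.76 and 10.74 on the full-length arrays and 11.07, 11.38, 11.31 and 11.36 on the truncated arrays. Its means of 10.41 ± 0.41 and 11.21 ± 0.20 gave an adjusted p of 0.321 in limma, and of 0.0272 with the replicate block. Pdia6 (P5), which also acts on IRE1, lay at 8.24, 8.49, 8.79 and 8.86 on the full-length arrays and 9.44, 9.22, 9.16 and 9.27 on the truncated arrays. It too was without overlap, but it did not pass in either fit (limma, adjusted p = 0.258, and 0.0812 with the replicate block). Pdia3 (ERp57), the isomerase that pairs with calreticulin and calnexin and loads MHC class I, differed by 0.33 (95% interval -0.39 to 1.06), and its groups overlapped.

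**Figure D2:**
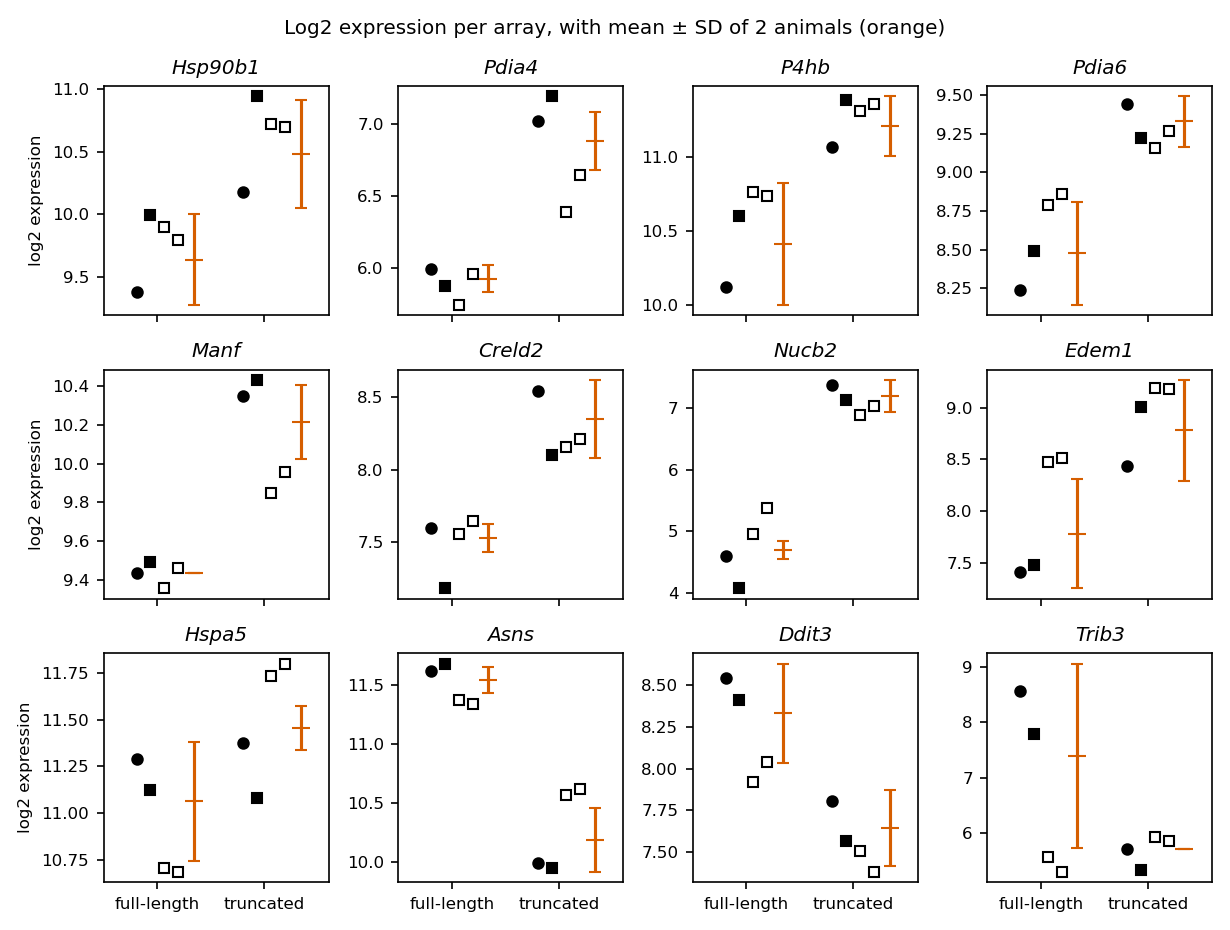
Log2 expression of 12 of the genes on each array (circles animal 1, squares animal 2; filled symbols arrays numbered 1, open symbols arrays 2 and 3), with the mean ± SD of the 2 animals of each genotype in orange. Truncated arrays lie above all full-length arrays for Hsp90b1, Pdia4, P4hb, Pdia6, Manf, Creld2 and Nucb2, and below them for Asns and Ddit3; the scales differ between panels.

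Of the 7 genes of ER-associated degradation, which returns misfolded chains to the cytosol for the proteasome, 6 had a higher mean, and the median difference was 0.26. It was 0.45 among the arrays numbered 1 and -0.078 among arrays 2 and 3, so the list did not keep its direction across both sets. Edem1, a lectin that marks misfolded glycoproteins and a target of XBP1, lay at 7.40, 7.47, 8.47 and 8.51 on the full-length arrays and 8.43, 9.01, 9.19 and 9.18 on the truncated arrays. The full-length arrays numbered 1 lay lowest, and the truncated array of animal 1 lay just below the full-length arrays 2 and 3. The difference was 1.00 (95% interval 0.042 to 1.96; limma, adjusted p = 0.334; 0.0374 as adjusted p with the replicate block), at 1.28 and 0.69 in the respective sets of arrays.

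Its relative Edem2 differed by 1.14 among the arrays numbered 1 and by -0.38 among arrays 2 and 3. Sel1l, the adaptor of the ubiquitin ligase complex, differed by 0.45 and -0.078, and the ligase Syvn1 (HRD1) by 0.14 and -0.19. These genes thus changed sign between the sets. Herpud1, a stress-induced member of the same complex, lay at 8.68, 8.62, 8.44 and 8.45 on the full-length arrays and 8.43, 8.38, 9.17 and 9.21 on the truncated arrays. Like Hspa5 it was highest on truncated arrays 2 and 3, whereas the truncated arrays numbered 1 lay just below the lowest full-length array. Derl1 and Derl2, related channel proteins of this pathway, went opposite ways, by -0.33 and 0.44. The arrays were fully separate for Derl2 with higher values in its brightest probe set, but with lower values in the other, which differed by -0.56. All 4 probe sets of Derl1 had a lower mean.

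The genes of the translocation channel, through which new chains enter the ER, differed little. Sec61b, a small subunit, lay at 10.67, 10.46, 10.94 and 10.97 on the full-length arrays and 10.99, 11.04, 11.10 and 11.15 on the truncated arrays, a difference of 0.31 without overlap. Sec61a1, the pore, differed by 0.03 (95% interval -0.63 to 0.69), a difference that changed sign when arrays were centred on their medians. Ssr1, of the translocon-associated complex, differed by 0.21 (95% interval -0.42 to 0.85).

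Nucb2, a calcium-binding protein of the secretory path and the precursor of nesfatin, had the largest difference in deposited values of the 36 genes. It lay at 4.59, 4.07, 4.95 and 5.38 on the full-length arrays and 7.38, 7.12, 6.88 and 7.03 on the truncated arrays. All truncated arrays lay above all full-length arrays. The full-length arrays lay around the median of all probe sets at 4.75, with animal 1 below it (4.59) and animal 2 just above (4.80). No detection calls come with these values, so the size of the difference can only be read as that of the deposited values, and no fold is given. The means were 4.70 ± 0.15 and 7.19 ± 0.26 (limma, adjusted p = 0.0816; 0.0153 as adjusted p with the replicate block). The difference was 2.92 among the arrays numbered 1 and 1.79 among arrays 2 and 3. With all 4 animals required above the median, Nucb2 was not tested. It has a single probe set here, so no other one could be compared.

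The 3 sensors differed little between the genotypes. Eif2ak3 (PERK) had means of 7.35 ± 0.095 and 7.53 ± 0.14, Ern1 (IRE1) of 7.48 ± 0.43 and 7.60 ± 0.29, and Atf6 of 7.13 ± 0.31 and 6.92 ± 0.02. The intervals of their differences were -0.39 to 0.74, -0.67 to 0.90 and -0.84 to 0.43, so a rise of the size seen for Hsp90b1 lies inside the interval of Ern1 and above those of Eif2ak3 and Atf6. Ern1 followed the set of arrays within the full-length group, at 7.18, 7.14, 8.06 and 8.16, and its probe sets disagreed in direction. The arrays measure messenger levels, and neither the cutting of ATF6 nor the phosphorylation of PERK can be read from them. The spliced form of Xbp1 was not separated from the unspliced one.

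Among the transcription factors, Xbp1 lay at 10.07, 9.66, 10.77 and 10.80 on the full-length arrays and 10.57, 10.84, 11.00 and 11.02 on the truncated arrays. The full-length arrays numbered 1 were the lowest, and full-length arrays 2 and 3 lay within the truncated range, so the difference was 0.84 in the former set and 0.23 in the latter. All 4 Xbp1 probe sets had a higher mean in the truncated group (differences of 0.52 to 0.77). Atf4 had means of 10.15 ± 0.29 and 10.32 ± 0.30 (difference 0.17, 95% interval -0.53 to 0.88), and another probe set differed by -0.22. Ddit3 (CHOP), which ATF4 induces and which drives cell death under lasting stress, lay at 8.54, 8.41, 7.92 and 8.04 on the full-length arrays and 7.81, 7.57, 7.51 and 7.38 on the truncated arrays. Every truncated array lay below every full-length array, with a difference of -0.69 on the animal means (95% interval -1.36 to -0.013; limma, adjusted p = 0.345; 0.0344 as adjusted p with the replicate block). Another Ddit3 probe set differed by -0.67, with overlap.

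The genes downstream of ATF4 and CHOP differed in pattern from the chaperones, and also among themselves. Asns makes asparagine from aspartate, and its level is known to bear on the response of leukemia cells to asparaginase. It lay at 11.62, 11.68, 11.37 and 11.34 on the full-length arrays and 10.00, 9.95, 10.57 and 10.61 on the truncated arrays. No arrays overlapped, and the means of 11.54 ± 0.11 and 10.19 ± 0.27 were 2.56-fold apart (95% interval of the log2 difference -1.98 to -0.73; limma, adjusted p = 0.107; 0.0380 as adjusted p with the replicate block). The other Asns probe set differed by -1.35, also without overlap. Leaving out arrays, animals or the sets that stood apart moved the difference of Asns between -1.57 and -1.16.

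Trib3, a pseudokinase that ATF4 and CHOP induce, lay at 8.58, 7.80, 5.56 and 5.29 on the full-length arrays and 5.71, 5.34, 5.93 and 5.85 on the truncated arrays. Only the full-length arrays numbered 1 were high, and the other full-length arrays lay near the truncated ones. The difference was -2.66 among the arrays numbered 1 and 0.46 among arrays 2 and 3. Ppp1r15a (GADD34), which lets translation resume, lay at 10.07, 10.38, 9.94 and 9.90 on the full-length arrays and 9.15, 8.82, 10.43 and 10.40 on the truncated arrays, with the 2 truncated arrays numbered 1 below all others. Its difference likewise changed sign, from -1.24 to 0.49. Chac1, an enzyme that degrades glutathione, had both full-length animals below the median of all probe sets (4.09 and 4.70) and both truncated animals above it (5.06 and 4.94). It was kept only through the latter, and its difference of 0.61 is given with no test. Trib3 and Ppp1r15a thus rested on the arrays numbered 1, whereas Asns and Ddit3 had the same direction in both sets.

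**Figure D3:**
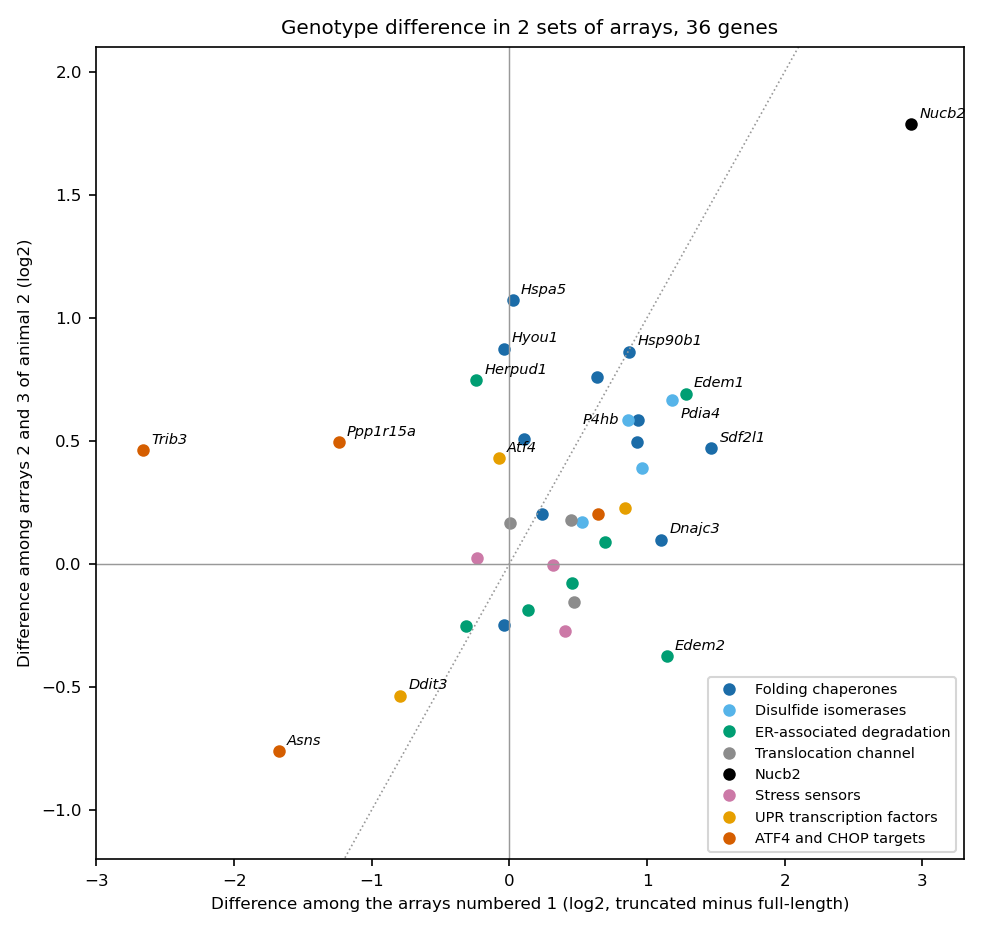
Truncated minus full-length difference in log2 expression of the 36 genes among the arrays numbered 1 (horizontal axis, 2 animals per genotype) and among arrays 2 and 3 of animal 2 (vertical axis, 1 animal per genotype), coloured by role; the dotted line marks equal values. Nucb2 lies at the upper right, Asns and Ddit3 at the lower left, and Trib3 and Ppp1r15a at the left above 0.

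Over all 36 genes the sign was the same in both sets of arrays for 24, of which 20 were higher (55.6%, against 27.4% of all genes) and 4 lower (11.1%, against 30.0%). The other 12 changed sign. The 15 chaperones and isomerases had a median difference of 0.86 among the arrays numbered 1 and 0.51 among arrays 2 and 3. Their median level was 8.84, 8.85, 8.79 and 8.86 on the full-length arrays and 9.44, 9.22, 9.16 and 9.27 on the truncated arrays. The groups did not overlap in this median. The 4 genes downstream of ATF4 and CHOP had medians of 9.32, 9.09, 7.75 and 7.60 and 7.43, 7.08, 8.18 and 8.12, which overlapped.

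Other genes of the pathway, from lists of 165 symbols, were on the array for 143 and kept for 135. Of these 71 had a higher and 64 a lower mean, and the median difference was 0.04. By limma on the animal means 0 passed an adjusted p of 0.05, and 11 were higher (8.15%, against 8.79% of all genes) and 9 lower (6.67%, against 5.30%) at an unadjusted p under 0.05. With the replicate block 6 passed as higher (Pdia5, Rcn2, Erp29, Fkbp2, Dpagt1 and Svip; 4.44%, against 5.13%) and 3 as lower (Tusc3, Edem3 and Spcs1; 2.22%, against 3.13%). These shares of the block fit lie below those of all genes. The arrays of the genotypes were fully separate for 24 of the 135 with higher values (17.8%, against 10.3% of all genes). For 12 they were separate with lower values (8.89%, against 8.77%). The list closest to the chaperones, of folding and oxidation, had 22 of 28 genes with a higher mean and a median of 0.24. Of these 28, 32.1% were fully separate with higher values and 3.57% with lower ones, near the 30.6% and 5.56% of the 36 members. Pdia5, a further disulfide isomerase, lay at 4.57, 4.15, 4.65 and 4.44 on the full-length arrays and 5.77, 5.66, 5.76 and 6.31 on the truncated arrays. Both full-length animals lay below the median of all probe sets, so Pdia5 was kept only through the truncated animals. Its place among the 6 above therefore carries no weight, and its values are given as a description. The reticulocalbin Rcn2, a calcium-binding ER protein, differed by 1.40 (adjusted p = 0.176 in limma, 0.0259 with the replicate block).

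Glycosylation of new proteins had 15 of 19 genes with a higher mean and a median of 0.18. Of these 19, 36.8% were fully separate with higher values and 5.26% with lower ones. The oxidoreductase subunit Tusc3 of the glycosylation complex nevertheless differed by -1.14, and the cargo receptor subunit Mcfd2 by 0.75. The lists of translocation (10 of 21 higher, median -0.029) and of further degradation genes (8 of 23 higher, median -0.11) had medians close to that of all genes. In the respective lists 14.3% and 8.70% were fully separate with higher values, and 19.0% and 17.4% with lower ones. Of the former, Tram2 differed by 0.91 and Sec61a2, the minor pore subunit, by -0.88. Of the latter, Edem3, a relative of Edem1, lay at 9.43, 9.59, 9.79 and 9.80 on the full-length arrays and 8.09, 8.71, 8.92 and 8.92 on the truncated arrays, opposite in direction to Edem1 (limma, adjusted p = 0.237; 0.0180 as adjusted p with the replicate block), and Svip differed by 1.17. Of further sensor genes 8 of 16 had a higher mean, with Creb3l1, a membrane-bound transcription factor, at -1.18 and the stress kinase Map3k5 (ASK1) at 1.12. Both differed more between arrays of the full-length group than between the genotypes.

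The list of other ATF4 targets had 8 of 28 genes with a higher mean and a median of -0.21. Among the arrays numbered 1 the median was -0.35, and among arrays 2 and 3 it was 0.39. Its direction thus depended on the set of arrays, as for Trib3 and Ppp1r15a. Phgdh, the enzyme that starts serine synthesis, lay at 7.13, 7.27, 9.73 and 9.79 on the full-length arrays and 9.37, 9.58, 9.80 and 9.97 on the truncated arrays, and was low only on the full-length arrays numbered 1. Nupr1, a small stress protein, differed by 1.18.

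Markers of other cell types moved with the same sets of arrays, and their part in the results was not tested. Erythroid markers, 12 on the array, of which 11 were kept and 10 had a lower mean, had medians of 11.03, 10.96, 8.05 and 8.06 on the full-length and 9.05, 8.94, 8.34 and 8.35 on the truncated arrays. Primary granule markers, 7 on the array and all with a higher mean, had 5.55, 4.86, 10.39 and 10.38 and 11.29, 11.45, 11.62 and 11.70. The full-length arrays numbered 1, where Trib3 was high and Edem1, Edem2 and Xbp1 were low, were thus also those high in erythroid and low in granule genes. Without them the difference of Trib3 was 0.28 and that of Xbp1 was -0.020, while that of Hsp90b1 was 0.64, of Nucb2 2.03 and of Asns -1.17. This leaves only animal 2 in the full-length group.

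Antibody-secreting cell markers, 11 on the array and 6 kept, had medians of 4.84, 4.97, 4.98 and 5.02 on the full-length and 4.1, 4.32, 7.43 and 7.27 on the truncated arrays. The joining chain gene Jchain, named here after its values were seen, lay at 4.84, 4.97, 6.17 and 6.43 on the full-length arrays and 3.56, 3.32, 10.85 and 10.81 on the truncated arrays. Truncated arrays 2 and 3, on which Hspa5 and Herpud1 were highest, were thus also those high in immunoglobulin genes. Of the 11 listed genes, 10 had their highest values there. The exception was Tnfrsf13b, at 6.06, 6.25, 8.68 and 8.70 on the full-length and 8.98, 9.61, 8.79 and 8.85 on the truncated arrays. Ighm lay at 8.21, 7.57, 10.23 and 10.30 on the full-length and 7.75, 7.02, 13.11 and 13.15 on the truncated arrays. Pou2af1, a coactivator of B lineage cells, lay at 3.72, 3.67, 7.43 and 7.27 on the truncated arrays and Irf4 at 4.1, 4.32, 5.57 and 5.53. The plasma cell genes Sdc1, Prdm1 and Tnfrsf17 were also highest on these arrays, but within 3.72 to 5.78 over all arrays. Without these arrays the difference was 0.16 for Hspa5, 0.92 for Hsp90b1, 1.19 for Pdia4, 2.55 for Nucb2 and -1.57 for Asns. Nucb2 and Asns then passed by limma (adjusted p = 0.0145 and 0.0225), as did Pdia4. In that fit 5.56% of members passed as higher and 2.78% as lower, where 411 of 11373 genes passed as higher and 97 as lower. Secondary granule markers were higher on every truncated array, with list medians of 6.59, 6.58, 8.94 and 8.94 against 11.03, 11.20, 11.54 and 11.56, as were monocyte and macrophage markers, with 6.53, 6.18, 6.72 and 6.74 against 8.19, 8.31, 8.16 and 8.14. The arrays did not overlap for 9 of 9 kept secondary granule and 9 of 13 kept monocyte genes, all higher, against 10.3% of all genes.

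Of the 8 kept immature progenitor genes 5 had a higher mean, with a median difference of 0.66, and the list medians of 5.90, 5.87, 6.15 and 6.03 and 6.59, 6.84, 7.08 and 7.30 did not overlap. Gata2 differed by -0.89 and Myb by -0.63, and both lay between 8.91 and 11.01 on all arrays. Kit differed by -0.57, while Cd34 differed by 2.72, Sox4 by 0.86, Flt3 by 0.79, and Cd93 and Hoxa9 by 0.66 each. The arrays overlapped for Cd34, which differed by 4.03 among the arrays numbered 1 and by 0.11 among arrays 2 and 3. Of 5 kept megakaryocyte genes 4 had a higher mean (median 0.27), with Gp5 at -0.66 and Itga2b at 0.46. Itga2b changed sign, from 0.84 among the arrays numbered 1 to -0.35 among arrays 2 and 3. Pf4 differed by 1.52 without overlap of the arrays, at 2.01 and 0.34 in the respective sets.

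Of 6 kept B cell genes 5 had a higher mean (median 0.97), with list medians of 4.50, 4.63, 4.43 and 4.38 on the full-length and 4.66, 4.42, 5.73 and 5.94 on the truncated arrays. Of these, Cd79b differed by 1.34 and Cd22 by 0.20. Of 8 kept mast cell genes 3 had a higher mean, with list medians of 5.29, 5.21, 9.34 and 9.39 and 7.47, 7.65, 5.48 and 5.54. Ms4a2 differed by -0.16 and Cpa3 by 3.29, with 4.79 for Cpa3 among the arrays numbered 1 and 0.28 among arrays 2 and 3. The arrays were fully separate only for Tpsab1 at -2.35 and Hdc at -1.04, both lower (25.0%, against 8.77% of all genes). Of 5 kept T and NK cell genes 2 had a higher mean (median -0.025; Cd3e -0.083, Cd4 0.18). Of 4 kept stromal and endothelial genes 2 had a higher mean (median 0.076), with Dcn at -2.46, Kdr at -0.18, Pecam1 at 1.70 and Col1a2 at 0.34. Dcn was high only on the full-length arrays numbered 1.

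**Figure D4:**
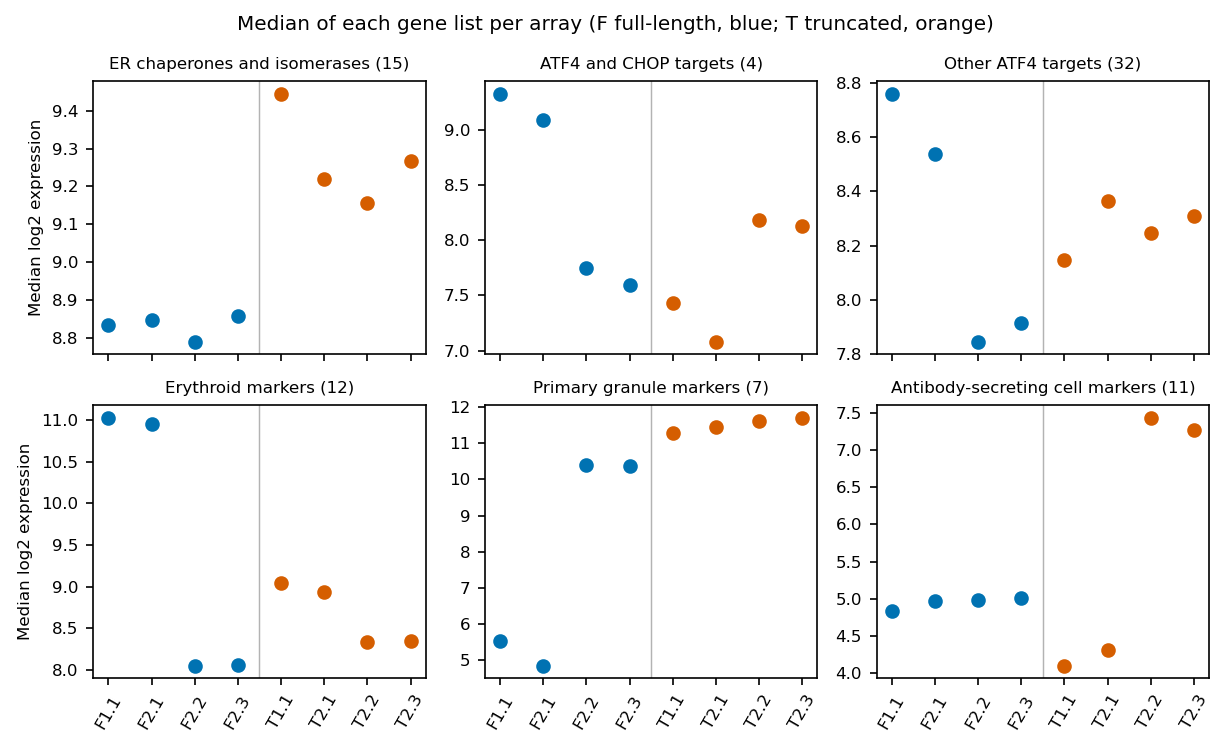
Median log2 expression per array of 2 groups of the 36 genes, of other ATF4 targets and of 3 marker lists (numbers in brackets are genes on the array; F full-length, blue; T truncated, orange). Chaperone and isomerase medians separate the genotypes on all arrays, as do primary granule medians, whereas the ATF4 and marker medians shown also differ between arrays of a genotype.

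Agreement between probe sets was checked for the 26 members with more than 1. Of 43 other probe sets above the median of all probe sets, from 21 genes, 30 had the direction of the brightest probe set and 13 the opposite one. The opposite ones belonged to 9 genes. For Hsp90b1, Hspa5, Calr, Dnajc3, Edem1, Xbp1, Asns, Ddit3, Trib3 and Derl1 all those probe sets had the same direction. Pdia4, P4hb, Pdia6, Manf, Creld2, Sdf2l1 and Nucb2 rested on 1 such probe set each.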

How the data were processed

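Spleen RNA was hybridised to 8 one-colour arrays of 45101 probe sets. The values are log2 expression as deposited by the authors, made with RMA per the submitters' processing notes, so background correction and normalization were already done; they ran from 1.79 to 14.1. Of the probe sets, 34945 named 1 gene in the platform annotation, 932 several and 9160 none, and 64 were controls. One probe set per gene was used, that with the highest mean over the 8 arrays, and genes needed values above the median of all probe sets (4.75) in at least 2 animals of 4. Arrays of an animal were averaged, and genotypes were compared with limma 3.58.1 in R 4.3.3, with Benjamini-Hochberg adjustment over 11386 genes and calls at an adjusted p under 0.05. The fit was tested on simulated data.

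The deviations of same-numbered arrays from their group means correlated across genotypes (0.301, 0.144, 0.229 and 0.213), with numbers taken from the labels. Unlike-numbered arrays of the same set did so to a like degree (0.124 to 0.227), and arrays of different sets correlated negatively (-0.250 to -0.134), so the deviations followed the set of arrays. As every same-numbered pair exceeded 0.1, a fit with this replicate block is given beside the results it changes. Alternatives were other blocks, filters, scalings and probe set rules and leaving out arrays or animals. The members and all gene lists were chosen with earlier results of these data known. Every member was named. Of each further pathway list the genes past the threshold or, with none, those 2 with the largest difference were named. The 2 brightest genes were named of the antibody-secreting, progenitor, megakaryocyte, B, mast, T and NK cell and stromal marker lists. Of the primary granule list only Mpo was named, and the erythroid, secondary granule and monocyte lists were given as medians only. Jchain, Pou2af1, Irf4, Sdc1, Prdm1, Tnfrsf17, Cd34, Sox4, Flt3, Kit, Cd93, Hoxa9, Pf4, Tpsab1, Hdc, Pecam1 and Col1a2 were added after their values were seen.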

Additional observations from a re-analysis of the deposited data

Results flagged for a closer look

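In 5 of 72 groups of 4 arrays, 1 array lay far from the other arrays of its genotype (gap over range above Dixon's critical value at 95%). Chance gives about 1 in 20 such groups for independent values, which arrays of the same animal are not. Calr on the truncated array of animal 1 lay at 11.56, below 11.74 to 11.78 on the others. Edem2 on truncated array 1 of animal 2 lay at 8.456, above 7.965 to 8.047. Syvn1 on the full-length array of animal 1 lay at 7.495, below 7.875 to 7.924. Derl2 on full-length array 1 of animal 2 lay at 7.29, below 7.791 to 7.893. Sec61a1 on the full-length array of animal 1 lay at 10.48, above 10.03 to 10.05. All 5 were arrays numbered 1.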

How the results depend on the processing

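The median difference of the 36 genes stayed positive in every setting tried, from 0.23 to 0.40 when arrays, animals or the sets that stood apart were left out. Counts of calls depended on how the arrays of an animal entered the fit, and the cause was not tested. On the animal means limma called 0 genes higher and 0 lower. On 8 arrays with a random block for the animal it called 264 higher and 81 lower, with 1 member each. With the animal and array number as a replicate block it called 584 and 356, with 7 and 2 members, and with the animal number as a replicate block on the animal means 246 and 40, with 1 member, Nucb2. With 1 array per animal it called 1674 and 1399, with 14 and 4 members. Nucb2 and Chac1, among the 14, were kept there only through the truncated animals. In that setting 22 members higher (61.1%, against 29.1% of all genes) and 7 lower (19.4%, against 29.5%) showed no overlap, in place of 11 and 2. With all 4 animals required above the median, 1 gene was lower, and Nucb2 and Chac1 were not tested. Leaving out 1 array or animal gave 0 to 448 genes higher, 0 to 187 lower, 0 to 1 member in each direction, and 11 to 23 higher (30.6% to 63.9%, against 10.9% to 32.2% of all genes) and 2 to 6 lower members without overlap (5.56% to 16.7%, against 9.34% to 34.7%). The largest counts came without full-length animal 2, where a lone animal was assumed to vary like the others. Without the full-length arrays numbered 1, 5 lower members showed no overlap (13.9%, against 25.2%), and 10 of the 36 differences changed sign. Without truncated arrays 2 and 3 limma called 411 and 97 of 11373 genes, with 2 and 1 members (5.56% and 2.78%). There 5 lower members showed no overlap (13.9%, against 14.2%). On arrays 2 and 3 of animal 2 only, a setting chosen after seeing the data, 24 members higher (68.6%, against 34.2%) and 8 lower (22.9%, against 43.2%) showed no overlap. No filter, array centring, the mean over probe sets and a robust prior called no member.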
